A study of Mus musculus with 6 samples.

Results

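The erythroid transcription factors examined here are 10 genes, Tal1, Lmo2, Ldb1, Gata1, Zfpm1, Gfi1b, Nfe2, Bcl11a, Klf1 and Sox6, out of 18193 genes measured. They were taken by name from probe sets whose platform annotation gives a single gene. All 10 were measured, by 20 probe sets in all, and each gene is represented by whichever of its probe sets averaged highest over the arrays.

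The data come from 6 single-colour Affymetrix arrays, 1 per sorted sample. The cells were sorted from the fore and hind limb skeleton of mice at postnatal day 3, and each sample pooled the limbs of a litter. The Itgav-low Tie2-positive population (3 arrays, called Tie2-positive here) was negative for CD45, an antigen of white blood cells, and for Ter119, an antigen of red-cell precursors and red cells, carried little integrin alpha V and bore the angiopoietin receptor Tie2. The Itgav-negative Tie2-negative population (3 arrays, called Tie2-negative here) lacked all 4 antigens. All samples were given as wild type and untreated, while the protocol speaks of GFP-labeled mice, and which holds was not settled. The labels do not say whether replicates of a population are different litters, so p-values reflect only the spread among these samples, which may be technical. RNA was amplified in 2 rounds before labelling. Values are quantile-normalized log2 array values, changes are Tie2-positive minus Tie2-negative on that scale, and a gene was called when limma's Benjamini-Hochberg adjusted p over all 18193 genes was under 0.05.

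The transcripts of the sort antigens went partly against the gates. Ptprc, the gene of CD45, gave 4.87, 9.95 and 11.23 in the Tie2-positive samples, against 9.42 to 10.41 in the Tie2-negative samples, so that it was low only in Tie2-positive replicate 1. That array stood apart from the other Tie2-positive arrays (r = 0.93 and 0.90 over all genes, against 0.98 between replicates 2 and 3), and results are therefore also given without it. Tek, the gene of Tie2, and the probe set used for Itgav followed the gates: Itgav gave 8.60 to 9.37 in the Tie2-positive samples, against 7.05 to 7.24 in the Tie2-negative samples.

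Red cells are made under a small set of transcription factors that act together. Gata1 binds GATA motifs with its cofactor Zfpm1 (FOG1), and joins a complex in which Tal1, a helix-loop-helix factor bound to E-boxes, is bridged by Lmo2 and Ldb1. Klf1 binds CACCC-type boxes of globin and other red-cell genes, and Sox6 and Bcl11a act in the silencing of embryonic globin genes. Tal1 and Lmo2 are also made by endothelial cells and Ldb1 by many cell types, Gata1, Zfpm1, Gfi1b and Nfe2 are shared with megakaryocytes, Bcl11a is also a factor of B-lineage cells, and Sox6 also acts in cartilage.

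The start sites of 8 of the 10 genes were in the RefSeq promoter table (GRCm38.p6), with 16 windows in all. The 250 bases before each start were searched on both strands for the GATA box (NGATAN, with A or T first and A or G last), which was found in 5 of the 16 windows (31.2%), against 26.5% of 32851 windows of the whole table. The 4 windows printed here are shown because they hold a GATA box, in capitals, and belong to Sox6, the called gene, or to Tal1, Gfi1b and Klf1, which hold the composite motif described after them. Each is given 5′ to 3′ on the gene's own strand and ends at the base before the start.
Tal1, chr4:115056176-115056425, plus strand: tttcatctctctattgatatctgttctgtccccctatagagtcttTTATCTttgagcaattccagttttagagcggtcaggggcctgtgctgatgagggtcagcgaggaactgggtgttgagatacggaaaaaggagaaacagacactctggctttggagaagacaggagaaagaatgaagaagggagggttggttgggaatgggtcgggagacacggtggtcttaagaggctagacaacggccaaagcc
Gfi1b, chr2:28621983-28622232, minus strand: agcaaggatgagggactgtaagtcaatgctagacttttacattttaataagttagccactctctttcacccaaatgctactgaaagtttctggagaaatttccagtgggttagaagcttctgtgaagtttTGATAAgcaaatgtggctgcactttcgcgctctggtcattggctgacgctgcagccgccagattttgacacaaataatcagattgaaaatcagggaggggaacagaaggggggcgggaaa
Klf1, chr8:84901732-84901981, plus strand: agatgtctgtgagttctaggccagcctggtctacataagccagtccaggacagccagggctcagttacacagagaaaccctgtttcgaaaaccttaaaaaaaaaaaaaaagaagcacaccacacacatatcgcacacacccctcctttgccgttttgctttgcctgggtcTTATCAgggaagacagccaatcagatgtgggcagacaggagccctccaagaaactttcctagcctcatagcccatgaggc
Sox6, chr7:115846141-115846390, minus strand: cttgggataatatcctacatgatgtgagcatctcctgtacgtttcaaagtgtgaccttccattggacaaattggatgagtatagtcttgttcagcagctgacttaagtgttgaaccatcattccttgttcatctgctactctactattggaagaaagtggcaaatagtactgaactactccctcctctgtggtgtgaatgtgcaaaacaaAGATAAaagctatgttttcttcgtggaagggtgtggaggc
In Tal1 and Klf1 the capitals are the complement of the box, which lies on the other strand. The Sox6 window is that of 1 of 6 annotated starts, and the other 5 held no GATA box. A short E-box part (CTG) with GATA 7 to 9 bases after it, the arrangement bound by the Tal1 and Gata1 complex, was found in these Gfi1b, Tal1 and Klf1 windows. In Gfi1b and Klf1 its GATA is that of the printed box, and in Tal1 it is another GATA. These were 3 of 16 windows (18.8%) against 6.13% of the table. The KLF box (CCNCNCCC) was in 10 of 16 windows (62.5%, against 45.9%), the E-box (CANNTG) in 11 (68.8%, against 66.2%), the SOX box (ACAAAG or ACAAT) in 7 (43.8%, against 38.8%), and the NF-E2 box (TGANTCA) in 0 (against 6.75%). The GATA and E-box searches overlap the composite search, windows of 1 gene are not independent, and a match is a description of these letters only.

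Sox6 was the only called member: it fell by 3.81 ± 0.64 on the log2 scale (SE, n = 3 per population), a 14.0-fold difference of array values, in the Tie2-positive population. The other 9 did not pass, although all 10 changes were negative and, after quantile normalization, the populations did not overlap in 8. On the values as deposited Gata1 overlapped (9.83 in Tie2-positive replicate 3, 9.74 in Tie2-negative replicate 2). Ldb1 also overlapped there (8.11 in Tie2-positive replicate 2, 7.85 in Tie2-negative replicate 1), and the Bcl11a populations met at 9.53. Among all genes, 2.53% were called lower and 7.39% in either direction, while 23.9% had every Tie2-positive value under every Tie2-negative value and 15.2% the opposite. No member was called higher (0 of 10 by limma, also 0 at an unadjusted p under 0.05, against 4.86% of all genes called higher), and 5 members, all lower, had an unadjusted p under 0.05, as did 28.6% of all genes (13% higher and 15.6% lower). The median change of the 10 was -1.89, against -0.11 over all genes. In sorted bulk samples fewer cells of a type and less RNA per cell cannot be told apart.

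**Figure D1:**
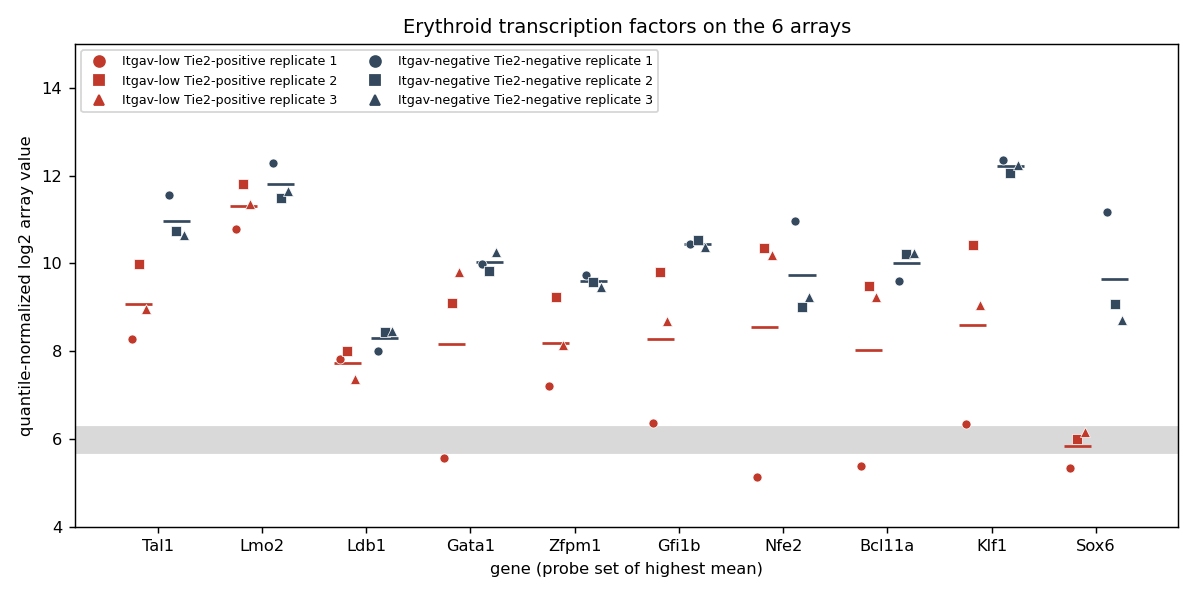
Quantile-normalized log2 value of each erythroid factor on each array, with a short line at the mean of 3 arrays; red points are Itgav-low Tie2-positive and dark points Itgav-negative Tie2-negative samples. The grey band spans the 95th percentiles of odorant receptor genes on the 6 arrays. Sox6 is low on all 3 Tie2-positive arrays, while Gata1, Nfe2, Gfi1b, Bcl11a and Klf1 are far lower on Tie2-positive replicate 1 than on replicates 2 and 3.

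The Tie2-positive arrays were unlike one another in these genes. Replicate 1 was the lowest of all 6 arrays for 9 of the 10 members, Ldb1 being the exception, and replicate 2 lay above replicate 1 for all 10. The deposited values carry no detection calls, so 39 odorant receptor genes, used mainly by sensory neurons of the nose, served to describe low values: their 95th percentile per array was 5.67 to 5.93 on Tie2-positive arrays and 6.13 to 6.28 on Tie2-negative arrays. In Tie2-positive replicate 1, 4 members (Gata1, Nfe2, Sox6 and Bcl11a) were at or below it, and in each of the other 5 arrays 0 were. Levels of different probe sets are not comparable as transcript amounts.

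The factors shared with endothelium or with many cell types stayed above the odorant receptor percentile in every sample, and none of the 3 passed the test. Klf1, Zfpm1 and Gfi1b also stayed above it in every sample and did not pass either, so this does not set the shared factors apart. Tal1, the helix-loop-helix factor of blood and vascular precursors, gave 8.27, 9.98 and 8.97 in Tie2-positive replicates 1, 2 and 3, against 11.55, 10.73 and 10.64 in the Tie2-negative samples. Its populations did not overlap, and its highest Tie2-positive value was 0.66 below its lowest Tie2-negative value. The change of -1.90 ± 0.47 (SE, n = 3 per population; 95% interval -3.03 to -0.78) just missed the threshold (limma adjusted p = 0.0593). Tal1 passed in limma without Tie2-positive replicate 1 (-1.50, adjusted p = 0.0497) or without Tie2-positive replicate 2 (-2.36, adjusted p = 0.0463). It also passed after genes under the 40th percentile of mean level were dropped (limma adjusted p = 0.0488). Over the 6 fits without 1 array its limma adjusted p ran from 0.0463 to 0.175.

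Lmo2, the LIM-only protein that bridges Tal1 and Gata1, gave 10.79, 11.80 and 11.36 in the Tie2-positive and 12.29, 11.50 and 11.65 in the Tie2-negative samples. The populations overlapped. Its change was -0.50 ± 0.32 (SE, n = 3 per population; 95% interval -1.26 to 0.27; limma adjusted p = 0.337). It was -0.23 (adjusted p = 0.595) without Tie2-positive replicate 1 and -0.26 (adjusted p = 0.638) without Tie2-negative replicate 1. Ldb1, the adaptor that lets such complexes pair and loop DNA, gave 7.833, 7.995 and 7.373 in the Tie2-positive samples, against 8.003, 8.443 and 8.455 in the Tie2-negative samples. The populations were apart by only 0.0083, and the change was -0.57 ± 0.26 (SE, n = 3 per population; 95% interval -1.17 to 0.04; limma adjusted p = 0.198). Both intervals reach from 0 to a decrease of more than 2-fold, so neither gene is shown to be level between the populations.

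The 4 factors shared with megakaryocytes differed between the Tie2-positive arrays, as did Bcl11a and Klf1, whose Tie2-positive values spanned 4.09 and 4.08. Gata1, the zinc finger factor needed for red cells and platelets, gave 5.58, 9.09 and 9.80 in Tie2-positive replicates 1, 2 and 3, against 9.99, 9.82 and 10.27 in the Tie2-negative samples. The difference from the Tie2-negative mean was -4.45 in Tie2-positive replicate 1 and -0.22 in replicate 3, and the populations were apart by only 0.015. The change of -1.87 ± 1.02 (SE, n = 3 per population) did not pass (limma adjusted p = 0.267), and without Tie2-positive replicate 1 it was -0.58 (adjusted p = 0.210).

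Gfi1b, a repressor that recruits the demethylase Kdm1a, gave 6.37, 9.80 and 8.68 in the Tie2-positive samples, against 10.45, 10.52 and 10.38 in the Tie2-negative samples. The 3 Tie2-negative values spanned only 0.15, the Tie2-positive values 3.43. Its change was -2.17 ± 0.79 (SE, n = 3 per population; limma adjusted p = 0.138), and -1.21 (adjusted p = 0.0579) without Tie2-positive replicate 1. Zfpm1, the cofactor of Gata1, gave 7.21, 9.24 and 8.14 in the Tie2-positive samples, against 9.73, 9.58 and 9.46 in the Tie2-negative samples, again with no overlap (change -1.39 ± 0.49, SE; limma adjusted p = 0.126). Without Tie2-positive replicate 1 the change was -0.90 (adjusted p = 0.129). Its other probe set was also lower on all 3 Tie2-positive arrays (change -0.88).

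Nfe2, the large subunit of the NF-E2 factor of platelet and globin genes, gave 5.12, 10.35 and 10.19 in the Tie2-positive samples, against 10.96, 9.01 and 9.23 in the Tie2-negative samples. Tie2-positive replicates 2 and 3 were above Tie2-negative replicates 2 and 3, while replicate 1 was lowest of all arrays. The mean change of -1.18 ± 1.41 (SE, n = 3 per population) had an adjusted p of 0.599 in limma and turned to 0.54 (adjusted p = 0.547) without Tie2-positive replicate 1.

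Bcl11a, the zinc finger repressor of embryonic and fetal globin genes and a factor of early B cells, followed the same layout. It gave 5.38, 9.48 and 9.23 in the Tie2-positive samples, against 9.60, 10.21 and 10.24 in the Tie2-negative samples. The change was -1.98 ± 1.04 (SE, n = 3 per population; limma adjusted p = 0.253), and -0.66 (adjusted p = 0.146) without Tie2-positive replicate 1. Of its 7 probe sets, 4 did not overlap between the populations and 3 did, with changes from -2.61 to -0.13. The 2 with the largest changes, 1456632_at and 1457072_at, read 3.66 and 3.60 in Tie2-positive replicate 1.

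Klf1 and Sox6 had the largest changes of the 10. Klf1, the activator of adult beta globin, gave 6.34, 10.42 and 9.04 in the Tie2-positive samples, against 12.35, 12.07 and 12.25 in the Tie2-negative samples. Its populations were 1.65 apart and its Tie2-negative values spanned 0.28, but its Tie2-positive values spanned 4.08. The change of -3.62 ± 0.94 (SE, n = 3 per population; 95% interval -5.85 to -1.40) did not pass (limma adjusted p = 0.0646). It passed in limma without Tie2-positive replicate 1 (-2.49, adjusted p = 0.00771) or without Tie2-positive replicate 2 (-4.53, adjusted p = 0.0465). Klf1 also passed in limma under array weights (-2.07, adjusted p = 0.0383). These gave Tie2-positive replicate 2 a weight of 5.83, against 0.246 and 0.845 for replicates 1 and 3. Over the 6 fits without 1 array its limma adjusted p ran from 0.00771 to 0.180.

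Sox6, a factor of the SoxD group that promotes red-cell maturation in mice, gave 5.33, 6.01 and 6.16 in the Tie2-positive samples, against 11.16, 9.07 and 8.70 in the Tie2-negative samples. It was below every Tie2-negative value on all 3 Tie2-positive arrays, which differed among themselves by at most 0.825, and the gap between the populations was 2.54. Sox6 averaged 5.83 ± 0.44 in Tie2-positive cells and 9.64 ± 1.33 in Tie2-negative cells (SD, n = 3 each), with limma's adjusted p at 0.0225 and a 95% interval of -5.34 to -2.28 for the change. The Tie2-positive values lay within 0.49 of the odorant receptor percentile of their array, so the size of the difference holds for array values only.

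With 1 array removed at a time, Sox6 stayed called in 3 of 6 fits. It was lost without Tie2-positive replicate 2 (-3.90, adjusted p = 0.0636), Tie2-negative replicate 1 (-3.05, adjusted p = 0.0633) and Tie2-negative replicate 2 (-4.10, adjusted p = 0.0804) in limma. When Tie2-negative replicate 1 or 2 was removed, limma called 0 genes of the whole table (4012 and 3980 had an unadjusted p under 0.05). Within the Tie2-negative population replicate 1 carried the highest Sox6 value, and it also had the highest median of red-cell target genes.

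All 4 probe sets of Sox6 were lower on every Tie2-positive array than on any Tie2-negative array. Probe set 1447655_x_at gave 4.76, 5.49 and 5.31 in the Tie2-positive samples, against 10.67, 8.29 and 7.95 in the Tie2-negative samples. Probe set 1434918_at gave 6.03, 6.30 and 6.04 in the Tie2-positive samples, against 9.60, 8.12 and 7.38 in the Tie2-negative samples. Probe set 1426018_a_at was dimmer, with 4.20, 4.75 and 4.75 in the Tie2-positive samples, against 8.38, 5.70 and 5.37 in the Tie2-negative samples. Changes over the 4 ran from -3.81 to -1.92, 2 of the 4 were called when every probe set was tested, and in each the highest value was that of Tie2-negative replicate 1.

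**Figure D2:**
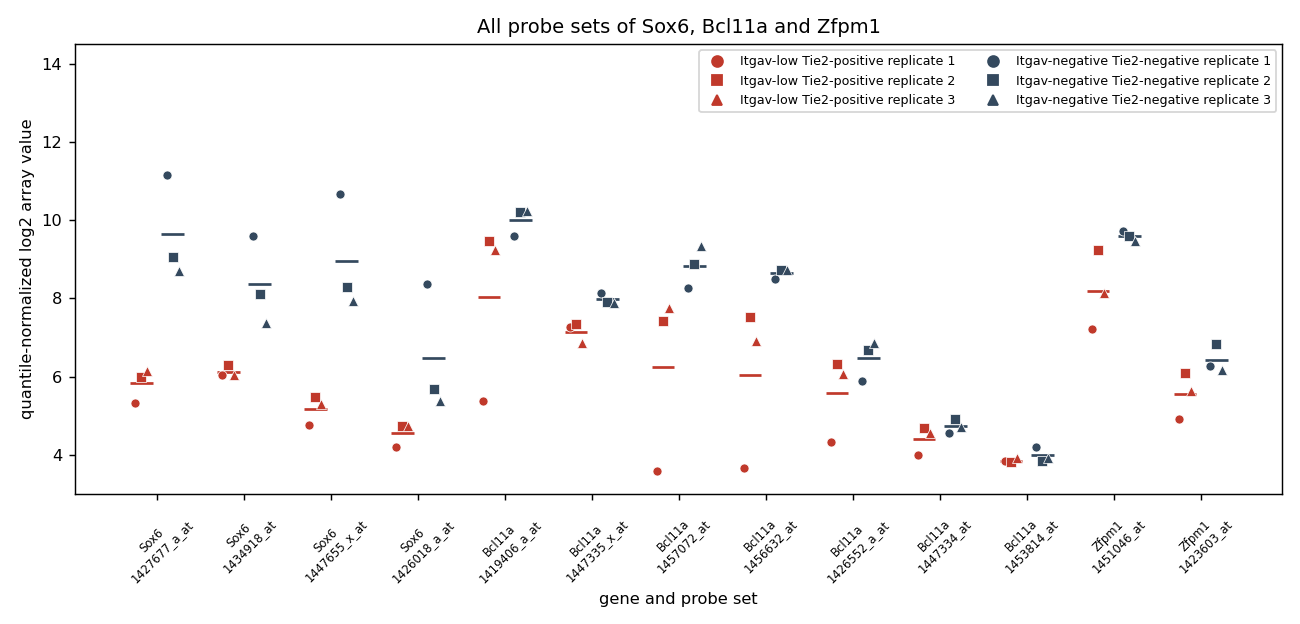
Quantile-normalized log2 value on each array for every probe set of Sox6, Bcl11a and Zfpm1, with a short line at the mean of 3 arrays. In all 4 Sox6 probe sets the red Tie2-positive points lie under the dark Tie2-negative points, and in the Bcl11a probe set used, 1419406_a_at, 1 red point (Tie2-positive replicate 1, at 5.38) lies far under the others.

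Set side by side, the changes were -1.90, -0.50 and -0.57 for Tal1, Lmo2 and Ldb1, between -2.17 and -1.18 for Gata1, Zfpm1, Gfi1b and Nfe2, -1.98 for Bcl11a, and -3.62 and -3.81 for Klf1 and Sox6. The difference between these classes was not tested. A further setting, added after seeing the data, left out both Tie2-positive replicates 2 and 3. It lends the single remaining array the spread of the Tie2-negative arrays. Lmo2 (-1.02) and Ldb1 (-0.47) changed least there, and Tal1 (-2.71) and Zfpm1 (-2.38) more. Klf1 (-5.88), Bcl11a (-4.63), Nfe2 (-4.61), Gata1 (-4.45), Sox6 (-4.31) and Gfi1b (-4.08) were all lower than -4. Without Tie2-positive replicate 1 limma called 3 lower, Klf1, Tal1 and Sox6, against 652 of all 18193 genes. Without Tie2-positive replicate 2 it called Klf1 and Tal1 lower, against 129 of all 18193 genes. In Tie2-positive replicate 1 Gata1, Nfe2, Sox6 and Bcl11a were at or below the odorant receptor percentile, so their differences are between array values only. The change of Sox6 was -3.56 without Tie2-positive replicate 1, but all its Tie2-positive values lie near that percentile, which leaves little room for it to move.

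**Figure D3:**
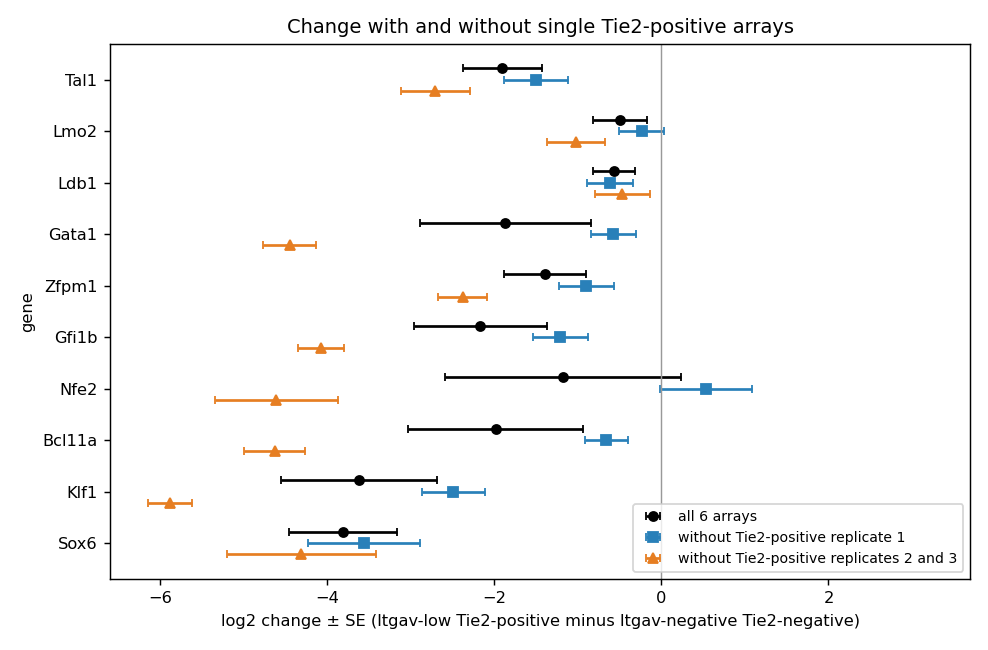
Log2 change of each factor (Itgav-low Tie2-positive minus Itgav-negative Tie2-negative) with its standard error from limma, using all 6 arrays, without Tie2-positive replicate 1, and without Tie2-positive replicates 2 and 3. The 3 estimates lie within 1 log2 unit of each other for Sox6, whose Tie2-positive values all lie near the odorant receptor percentile, and for Ldb1 and Lmo2, and far apart for Gata1, Gfi1b, Nfe2, Bcl11a and Klf1.

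Of 25 proteins that form complexes with these factors or act on the same sites, 1 rose and 0 fell in limma (4 lower at an unadjusted p under 0.05), against 4.86% of all genes called higher and 2.53% called lower, so the share of partners called is near the background. The riser was Fli1, an ETS factor of endothelium and megakaryocytes, with 10.12, 9.66 and 8.86 in the Tie2-positive samples, against 6.10, 6.67 and 6.03 in the Tie2-negative samples (change 3.28 ± 0.37, SE; limma adjusted p = 0.0105). In limma 2 partners rose when Tie2-positive replicate 1 was removed, and 0 when Tie2-negative replicate 1 or 2 was (2 at an unadjusted p under 0.05 in each). The median change of the 25 was -0.16, against -0.11 over all genes.

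Among 18 nearest relatives of the 10 factors, 2 rose and 0 fell in limma (0 lower at an unadjusted p under 0.05), against 4.86% of all genes called higher and 2.53% called lower. Ldb2, the sister gene of Ldb1, gave 11.03, 9.62 and 8.43 in the Tie2-positive samples, against 6.05, 6.23 and 6.29 in the Tie2-negative samples (change 3.51 ± 0.60, SE; limma adjusted p = 0.0238). Gata2, the GATA factor of endothelium, blood progenitors and mast cells, gave 9.62, 11.68 and 11.68 in the Tie2-positive samples, against 7.90, 8.21 and 8.85 in the Tie2-negative samples (change 2.68 ± 0.60, SE; limma adjusted p = 0.0453). Over the mean of its probe sets the Gata2 change was 1.99 and did not pass (limma adjusted p = 0.0528). In Tie2-positive replicate 1 Ldb2 was highest and Gata2 lowest of the 3 Tie2-positive arrays. The median change of the 18 was -0.0011. In limma 1 relative rose when Tie2-positive replicate 3 was removed, and 0 rose (2 to 4 at an unadjusted p under 0.05) when Tie2-positive replicate 2 or any 1 of the Tie2-negative arrays was.

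Many red-cell genes that these factors bind or regulate fell. Of 37 listed genes 30 were measured, and of these 17 fell and 0 rose in limma (0 higher at an unadjusted p under 0.05), against 2.53% of all genes called lower. The adult beta globin genes Hbb-b1, Hbb-bt and Hbb-bs were among those not measured. The list was chosen with earlier results of these data known, so its share of calls beside that of all genes is a description only. In 25 of the 30 every Tie2-positive value lay under every Tie2-negative value, and the median change was -3.22, against -0.11 over all genes. The largest were those of Epb42, a protein of the membrane skeleton, which fell by 5.99 on the log2 scale, Rhag, a subunit of the Rh complex, which fell by 5.67, and the claudin gene Cldn13, which fell by 5.10 (limma adjusted p between 0.0103 and 0.0223). The median of the list was 6.21, 8.27 and 6.85 in Tie2-positive replicates 1, 2 and 3, against 11.51, 10.55 and 9.67 in the Tie2-negative samples. In limma 7 targets fell when Tie2-negative replicate 3 was removed, and 0 when Tie2-negative replicate 1 or 2 was (22 and 24 at an unadjusted p under 0.05).

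The embryonic globin genes, which Sox6 and Bcl11a help to silence, belong to the red-cell target list above and are counted there. They were looked up singly after their values were seen. Hbb-bh1 gave 5.36, 5.20 and 5.23 in the Tie2-positive samples, against 8.50, 5.64 and 5.67 in the Tie2-negative samples, so that only Tie2-negative replicate 1 stood out (limma adjusted p = 0.270). That array also held the highest Sox6 value. Hbb-y ran from 4.25 to 4.40 on Tie2-positive arrays and from 4.44 to 5.35 on Tie2-negative arrays (limma adjusted p = 0.198). Hba-x ran from 5.52 to 5.86 on Tie2-positive arrays and from 5.45 to 5.74 on Tie2-negative arrays (limma adjusted p = 0.712).

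For 4 members the 3 genes with the most similar profile were taken, as the smallest root mean square difference between profiles centred on their own mean, over the 6 arrays and 18193 genes. Nearest to Klf1 were the carbonic anhydrase gene Car2 (0.18 on the log2 scale), the transferrin receptor gene Tfrc (0.22) and Hemgn (0.46). None of these 3 passed the threshold either, and all 3 carried high values in Tie2-positive replicate 2 (10.88 to 11.14). Nearest to Sox6 were Slc25a37, the iron carrier of red-cell mitochondria (0.28), 5430401H09Rik (0.29) and the cell-cycle factor gene E2f2 (0.36), all 3 called lower. Nearest to Tal1 were Gstm5 (0.16), the haem synthesis gene Urod (0.19) and Gm9895 (0.24), and nearest to Lmo2 were Osbpl1a (0.08), Nat8f1 (0.11) and A430005L14Rik (0.13). Between members, the smallest differences were 0.35 for Tal1 and Zfpm1 and 0.36 for Gata1 and Bcl11a, and the largest was 1.98 for Nfe2 and Sox6. The arrays are few and share 2 populations, so likeness is a description only. Genes picked for a similar profile share the member's change and spread, so whether they pass adds nothing to the member's own result. Car2, Tfrc, Hemgn, Slc25a37, E2f2 and Urod are also in the red-cell target list.

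Markers of the other cells that a gate could hold differed between and within the populations, and those named here beyond the first 3 of a list were chosen after their values were seen. Beside all marker counts that follow, 4.86% of all genes were called higher and 2.53% lower. Of 9 endothelial markers, 7 rose and 0 fell in limma (0 lower at an unadjusted p under 0.05), and they averaged 11.39, 9.81 and 8.54 on the Tie2-positive arrays, against 5.75 to 5.86 on the Tie2-negative arrays. Tek, the gene of Tie2 itself, ran in the same order, with 12.06, 10.86 and 9.80 in the Tie2-positive samples, against 4.79 to 4.90 in the Tie2-negative samples. Of 8 megakaryocyte markers, 2 rose (Pf4 and Clec1b) and 0 fell in limma (1 lower at an unadjusted p under 0.05), with mean levels of 6.501, 8.879 and 8.002 in the Tie2-positive samples, against 5.97 to 6.00 in the Tie2-negative samples. Itga2b, the platelet integrin chain, gave 7.74, 11.25 and 10.33 in the Tie2-positive samples, against 7.25 to 7.45 in the Tie2-negative samples (limma adjusted p = 0.122).

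Of 6 mast cell and basophil markers 0 passed in limma (1 higher at an unadjusted p under 0.05), with mean levels of 5.033, 7.499 and 9.002 in the Tie2-positive samples, against 4.71 to 5.44 in the Tie2-negative samples. Of 6 neutrophil markers 0 passed in limma (0 at an unadjusted p under 0.05), with mean levels of 6.10, 11.72 and 13.36 in the Tie2-positive samples, against 6.67 to 8.97 in the Tie2-negative samples. Of 7 B-lineage markers 4 fell, with mean levels of 5.65 to 5.92 in the Tie2-positive samples, against 7.67 to 9.71 in the Tie2-negative samples. Tie2-positive replicate 1 was not like the other two in every marker: Ebf1 gave 8.98, 6.09 and 5.88 and Cd79b 5.63, 7.74 and 7.91 in the Tie2-positive samples, against 7.59 to 9.60 and 8.48 to 10.93 in the Tie2-negative samples. Of 7 markers of cartilage, where Sox6 is also used, 0 passed in limma (1 lower at an unadjusted p under 0.05), with mean levels of 5.09 to 5.92 in the Tie2-positive and 5.34 to 5.74 in the Tie2-negative samples. Of 7 stem and progenitor markers 2 rose (Cd34 and Mecom, both also made by endothelium), of 6 macrophage markers 2 rose (Vcam1 and Mrc1, likewise), and of 5 markers of plasmacytoid dendritic cells 0 passed in limma (3 lower at an unadjusted p under 0.05). Of 5 measured red-cell markers 3 fell, with mean levels of 5.18, 6.50 and 4.56 in the Tie2-positive samples, against 11.00, 9.41 and 9.04 in the Tie2-negative samples. These means include Hba-a1, which read 3.84 to 4.83 over the 6 arrays, under the odorant receptor percentile of each. The 3′ minus 5′ difference of the Actb and Gapdh control probe sets, a measure of RNA length, was 1.87, 1.55 and 1.44 in the Tie2-positive samples, against 1.82 to 2.00 in the Tie2-negative samples. The part of these cells and of RNA length in the changes of the 10 factors was not tested.

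**Figure D4:**
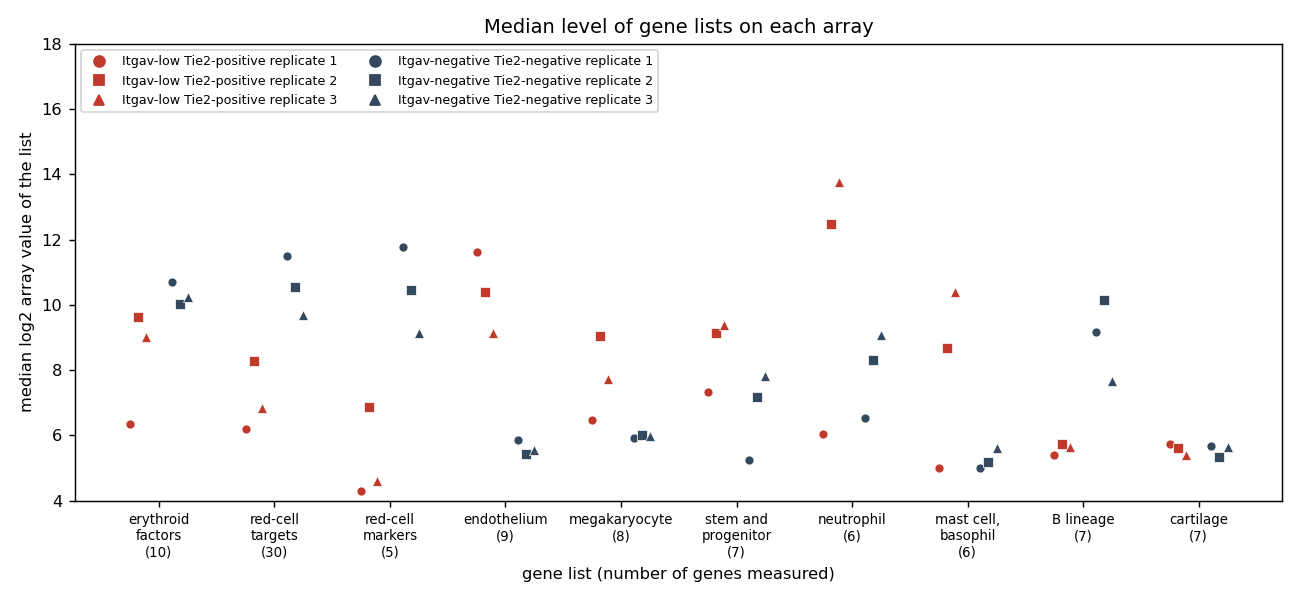
Median log2 level of each gene list on each array, with the number of genes measured in brackets. Within the red Tie2-positive points the erythroid factors are low in replicate 1 and high in replicates 2 and 3, as are the megakaryocyte, neutrophil and mast cell lists, while the endothelial list runs the other way and the B-lineage list is low on all 3.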

How the data were processed

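The authors deposited a series table of log2 values, from 2.56 to 14.78. No source names the scale, so it was inferred from this range. Per the labels' protocols the arrays were scanned with GCOS 1.1.1; the summary and normalization steps are not given in the sources used here. Arrays have no read depth, so their number limits the precision.

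All 45101 probe sets were quantile normalized, since the arrays' 75th percentiles differed by up to 0.27 between the populations, a difference this removes, and 64 controls were then dropped. The platform annotation gave 1 symbol for 34945 probe sets and several for 932, which were not named, while 9160 were unnamed here. The gene IDs of 34741 of these 34945 probe sets were in RefSeq (GRCm38.p6). The model was limma 3.58.1 (R 4.3.3) with lmFit and eBayes with a trend, on all 6 arrays, two-sided, without covariates. P-values were adjusted by Benjamini-Hochberg over 18193 genes. The procedure was tested on simulated data, and 0 array pairs were identical.

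The members and lists were chosen with earlier results of these data known. The naming rule took the members, up to 3 called genes per direction and list, the 3 nearest profiles of Klf1, Sox6, Tal1 and Lmo2, the first 3 measured markers of each cell type, and the genes of sort antigens. Promoters were searched only before the start, although the design also listed the 50 bases after it. Alternatives were the deposited values, median centring, a replicate block, the mean over a gene's probe sets, no x_at or s_at probe sets, all probe sets, a filter at the 40th percentile, no trend, robust estimation, array weights, removal of each array, and, chosen after seeing the data, removal of Tie2-positive replicates 2 and 3.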

Additional observations from a re-analysis of the deposited data

How the results depend on the processing

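The 10 factors kept the sign of their change in all 17 alternatives, except Nfe2 and Lmo2. Nfe2 was 0.71 with array weights, and from -2.08 to 0.54 without 1 array, the highest without Tie2-positive replicate 1. Lmo2 was 0.020 with array weights. The weights were 5.83 for Tie2-positive replicate 2, against 0.246 and 0.845 for Tie2-positive replicates 1 and 3. Of 187 counts, 133 stayed within 1.5 times the count with all 6 arrays. Over all genes limma called 1345 (884 higher, 461 lower). It called 2246 (1525 higher, 721 lower) with all probe sets tested, 4639 (2177 higher, 2462 lower) with array weights, and 3637 (1995 higher, 1642 lower) with Tie2-positive replicates 2 and 3 left out. Leaving out 1 array gave between 0 and 2148 calls (0 to 1496 higher, 0 to 652 lower). The labels do not say whether equal replicate numbers pair the arrays. With a replicate block limma gave 0 calls (0 higher, 0 lower), the smallest adjusted p being 0.0521. At an unadjusted p under 0.05 there were 5080 genes. Thus 0 erythroid factors, 0 partners, 0 relatives and 0 red-cell targets were called, and Sox6 had an adjusted p of 0.0708 in limma. Deviations of same-numbered arrays from their population means correlated at 0.14, 0.01 and 0.19, those of differently numbered arrays at -0.16 to 0.06. Tie2-positive replicate 2 correlated best with Tie2-negative replicate 3 (0.06), so whether the numbers pair the arrays was not settled. The factors called lower numbered 2 with the 40th percentile filter (Sox6 and Tal1), 2 with array weights (Sox6 and Klf1), 8 with Tie2-positive replicates 2 and 3 left out, and 0 to 3 without 1 array. Partners numbered 3 higher and 4 lower with array weights, 3 higher and 6 lower with Tie2-positive replicates 2 and 3 left out, and 0 to 2 higher without 1 array. Relatives called higher numbered 1 over the mean of all probe sets, against 788 of all 18193 genes, and 0 to 2 without 1 array. Red-cell targets called lower numbered 0 to 20 without 1 array, against 0 to 652 of all genes. Values as deposited and median-centred arrays changed no call of a factor. On the deposited values, however, the populations overlapped for Gata1 and Ldb1 and met for Bcl11a. The cause was not tested.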
